A study of Mus musculus with 48 samples.

Results

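The antibody heavy chains of the lacrimal gland were compared between B6 mice given fecal microbiota from mice with autoimmune dry eye (NOD-FMT, 10 mice) and B6 mice given buffer on the same schedule (PBS-T, 9 mice). The members were chosen by organ and treatment label, which gave 19 lacrimal gland libraries, 1 for each mouse, of the 48 libraries of the series. The mean net charge of the third heavy-chain complementarity-determining region (HCDR3) was higher in every NOD-FMT gland than in any PBS-T gland. NOD-FMT glands also held more IGHJ3, more IgA and fewer IGHV9-family clonotypes. Their IGHV profile differed by clonotype but, in the main test, not past the threshold by count. HCDR3 length and clonal evenness showed no difference past the threshold.

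All recipients were C57BL/6 (B6) mice 5 weeks old at the start, whose feces had been mixed between cages. NOD-FMT and PBS-T mice both drank ampicillin, vancomycin and metronidazole for 7 days. NOD-FMT mice were then gavaged daily for 3 weeks with fecal supernatant pooled from 30 male NOD.B10.H2b mice over 20 weeks old, while PBS-T mice received phosphate-buffered saline. The 5 untreated B6 mice (NC1) give background values and entered no test. The labels give 9 PBS-T mice, although the series' design text states 10, and they do not give the cage of a mouse. Since only heavy-chain (IGH) transcripts were amplified, the tissue could not be checked against marker genes, and fewer cells of a kind cannot be told apart from less antibody RNA per cell.

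A B cell assembles its heavy chain from a variable (IGHV), a diversity and a joining (IGHJ) segment, and the HCDR3 spans their junction and often contacts the antigen. Activated B cells may then exchange the IgM constant region for an IgG, IgE or IgA one and may acquire point mutations in the IGHV segment. The lacrimal gland houses IgA plasma cells, whose antibody is secreted into the tears. Among mouse joining segments, IGHJ3 ends the HCDR3 without an aspartate, while the others place one close to the end. Net charge here is the number of lysines and arginines less the number of aspartates and glutamates. All sequences of 1 mouse that agree in V gene, J gene and translated HCDR3 form a clonotype, and a count is the deposited duplicate count of a sequence.

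The HCDR3 coding sequences of 7 of the largest clonotypes are shown 5′ to 3′ with the codons of charged residues (lysine, arginine, aspartate and glutamate) in capitals. In each group they are the largest clonotypes with the highest net charge, with a charge of 0 (the one with the greatest share of its gland) and with the lowest charge, followed by the IGHJ3 clonotype that led the IGHJ3 counts of NOD-FMT 7 and NOD-FMT 10. The charges are 2, 0 and -2 in NOD-FMT mice, 1, 0 and -3 in PBS-T mice, and 1 for the IGHJ3 clonotype. Each was the most frequent nucleotide form of its clonotype.
NOD-FMT 10, IGHV10-1 with IGHJ1, VRGSGLRRWYFDV: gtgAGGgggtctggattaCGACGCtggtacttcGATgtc
NOD-FMT 6, IGHV7-3 with IGHJ2, ARYTPLGSYFDY: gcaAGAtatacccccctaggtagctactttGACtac
NOD-FMT 9, IGHV1-39 with IGHJ4, AGNYVDYYAMDY: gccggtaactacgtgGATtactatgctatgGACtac
PBS-T 6, IGHV1-53 with IGHJ2, AKRLYDY: gcaAAGCGTctctacGACtac
PBS-T 7, IGHV1-22 with IGHJ1, ARFYYGSSYWYFDV: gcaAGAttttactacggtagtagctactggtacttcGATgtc
PBS-T 8, IGHV10-3 with IGHJ2, VGDSSGYTGDFDY: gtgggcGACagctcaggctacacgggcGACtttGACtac
NOD-FMT 7, IGHV2-3 with IGHJ3, AKGGYYGSSSWFAY: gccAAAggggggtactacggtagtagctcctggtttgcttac
The IGHJ3 sequence lacks the GAC or GAT (aspartate) codon close to the end that the IGHJ1, IGHJ2 and IGHJ4 sequences carry.

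Each NOD-FMT library held 53625 to 341216 counts (median 163108) in 701 to 2488 clonotypes, and each PBS-T library 40401 to 359925 counts (median 57521). The library labelled PBS-T 5 stood apart with 17181 clonotypes, against 452 to 2488 in the other 18. Of its counts, 2.98% fell in clonotypes of the spleen labelled as the same mouse and 3.97% in those of the best-matching other spleen, whereas each of the other 23 gland libraries matched its own spleen best, with 76.3% to 97.1% of counts. Calls that were lost without that library are named beside the result. On the log2 scale total counts differed by 0.83 between the groups (exact permutation p = 0.0811), and by 1.11 without PBS-T 5 (exact permutation p = 0.0119). The number of clonotypes differed by 0.190 on that scale (exact permutation p = 0.816), and by 0.708 without PBS-T 5 (exact permutation p = 0.0155). The deposited names mark 6 NOD-FMT and 4 PBS-T gland libraries as merged without saying what was merged, and the differences within merged libraries and within the other 4 NOD-FMT and 5 PBS-T libraries are given with the pooled calls for charge, IGHJ3, amino acids, IGHV10-1, IGHV9 and isotypes. IgA made up less than 90% of counts in 5 of 9 PBS-T, 0 of 10 NOD-FMT and 1 of 5 NC1 glands. The part that depth or isotype mix plays in the results was not tested beyond the values given with them.

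HCDR3 net charge separated the groups. Averaged over the clonotypes of a gland, it was -0.123 in the lowest, 0.114 in the median and 0.238 in the highest NOD-FMT mouse, and -0.448, -0.256 and -0.131 in the PBS-T mice. The groups did not overlap, and 6 of 10 NOD-FMT glands but 0 of 9 PBS-T glands lay above 0. The means were 0.0705 ± 0.135 (SD, n = 10) and -0.266 ± 0.0908 (n = 9), a difference of 0.337 charges per HCDR3 (two-sided exact permutation p = 2.17e-05, adjusted p = 0.000217). Of the 10 measures of HCDR3 length and properties tested, 20.0% passed the adjusted threshold of 0.05, namely net charge by clonotype and by count. The difference was 0.338 without PBS-T 5, 0.333 among IgA sequences alone, 0.318 among merged libraries and 0.395 among the others. Exact permutation p was 0.00476 for merged and 0.00794 for other libraries, the smallest value that each split allows. The 5 NC1 glands ranged from -0.238 to -0.0253.

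Weighted by count, so that large clonotypes weigh more, net charge spread further within each group. It ranged from -0.329 to 0.690 (median 0.157) in NOD-FMT glands and from -1.26 to 0.106 (median -0.329) in PBS-T glands, and 5 of 10 NOD-FMT values lay above the highest PBS-T value. The means of 0.145 ± 0.331 and -0.411 ± 0.391 differed by 0.556 (two-sided exact permutation adjusted p = 0.0135, or 0.0225 without PBS-T 5). The difference was 0.481 among merged libraries (exact permutation p = 0.181) and 0.671 among the others (p = 0.00794).

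**Figure D1:**
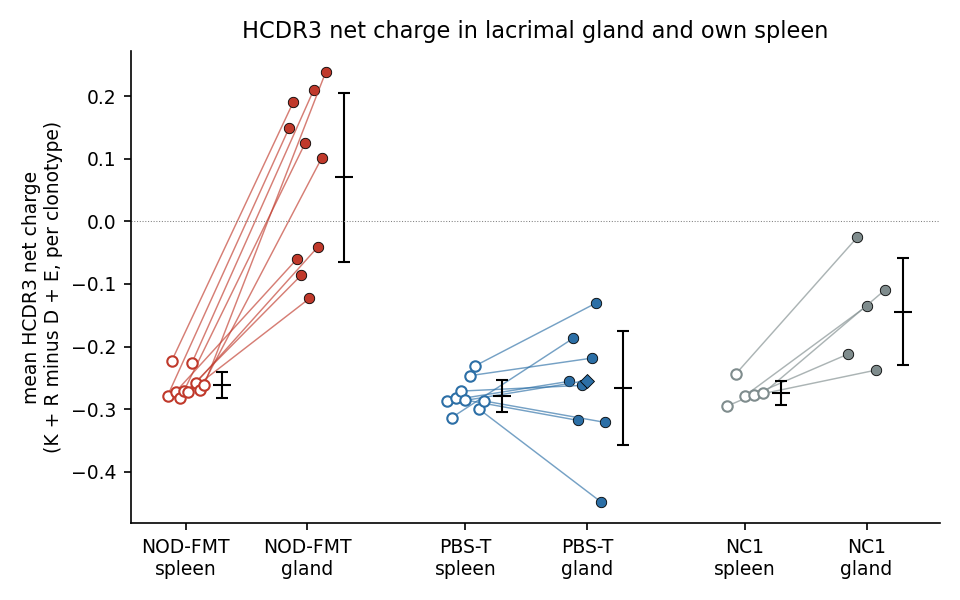
Mean HCDR3 net charge (charges per HCDR3) of each mouse, averaged over the clonotypes of its gland and of its spleen, with group mean and SD, for NOD-FMT, PBS-T and NC1 mice. Open points are spleens, filled points are glands, lines join the organs of a mouse, and the diamond is the gland library labelled PBS-T 5. PBS-T glands end at -0.131 and NOD-FMT glands begin at -0.123.

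Basic residues were more frequent at the start and in the middle of the HCDR3 in NOD-FMT glands, and acidic residues were less frequent in the middle and at the end. The 5 measures of residues and the 4 of net charge by joining segment restate parts of the net charge and were chosen after its result was seen, so that all 9 (100%) passing the threshold is no further support, and their values are a description. The share of clonotypes with a positive net charge ran from 26.8% to 43.5% (median 34.7%) in NOD-FMT and from 22.0% to 28.3% (median 24.2%) in PBS-T glands, with means of 34.4% ± 4.76 and 24.7% ± 2.07. In the middle of the loop, between residue 3 and the last 3 residues, NOD-FMT clonotypes carried on average 0.466 ± 0.0635 lysines and arginines against 0.352 ± 0.0370 in PBS-T, and 9 of 10 NOD-FMT glands lay above every PBS-T gland. Acidic residues in the same stretch numbered 0.550 ± 0.0714 against 0.670 ± 0.0617, and 6 of 10 NOD-FMT glands lay below every PBS-T gland. At the start of the loop, arginine at residue 2, the last residue that most IGHV segments encode, was present in 79.99% ± 3.54 against 75.8% ± 3.31 of clonotypes. At its end, an aspartate within the last 3 residues was present in 69.3% ± 4.03 against 74.7% ± 2.45.

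The higher charge was also found among the clonotypes of each joining segment taken alone. Among IGHJ2 clonotypes the mean charge was -0.0234 ± 0.152 in NOD-FMT and -0.440 ± 0.143 in PBS-T glands, with 9 of 10 NOD-FMT glands above every PBS-T gland. Among IGHJ4 clonotypes it was -0.0956 ± 0.196 against -0.442 ± 0.237, and among IGHJ3 clonotypes, the most positive in both groups, 0.464 ± 0.128 against 0.277 ± 0.137. Among IGHJ1 clonotypes it was -0.0961 ± 0.218 against -0.298 ± 0.165 (exact permutation adjusted p = 0.0371). Without PBS-T 5 the IGHJ1 call was lost (exact permutation adjusted p = 0.0609).

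The charge difference was also followed through isotypes, clone sizes and mutation, in 11 overlapping groups of clonotypes chosen after the main result was seen, of which 81.8% passed the threshold. They are subsets of the clonotypes already compared and so are no independent support. Clonotypes with IgA transcripts averaged 0.0960 ± 0.143 in NOD-FMT and -0.237 ± 0.0815 in PBS-T glands, without overlap. Clonotypes with IgG2b transcripts averaged 0.123 ± 0.211 and -0.307 ± 0.217 (two-sided exact permutation adjusted p = 0.00131). Clonotypes with IgM transcripts, the isotype of unswitched B cells, averaged -0.167 ± 0.121 and -0.198 ± 0.171 (exact permutation adjusted p = 0.653), and those with IgG2c 0.00671 ± 0.369 and -0.333 ± 0.714 (adjusted p = 0.233). Whether the difference itself varied between isotypes was not tested. It was present at every clone size, from clonotypes of a single count (0.0492 ± 0.210 against -0.313 ± 0.0865) to those of 100 or more counts (0.116 ± 0.119 against -0.180 ± 0.211). It was likewise present among clonotypes with an unmutated sequence (0.118 ± 0.108 against -0.210 ± 0.111) and among those with mutated sequences only (0.0126 ± 0.186 against -0.337 ± 0.109).

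No difference past the threshold was found in the spleens of the same mice. Splenic clonotypes averaged -0.262 ± 0.0208 in NOD-FMT and -0.278 ± 0.0255 in PBS-T mice (two-sided exact permutation p = 0.133). Of spleen counts IgA held 10.5% ± 3.10 in NOD-FMT and 8.73% ± 5.76 in PBS-T mice, and IgM 69.3% ± 6.51 and 76.0% ± 8.51. Spleen charge was not compared by isotype, so organ and isotype mix cannot be told apart here. The gland exceeded its own spleen in 10 of 10 NOD-FMT, 6 of 9 PBS-T and 5 of 5 NC1 mice. The excess averaged 0.332 ± 0.125 in NOD-FMT and 0.0122 ± 0.0806 in PBS-T mice, and this excess of gland over spleen differed between the groups by 0.320 (exact permutation adjusted p = 0.000173, or 0.000731 without PBS-T 5).

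HCDR3 length did not differ past the threshold. Mean length over clonotypes was 10.8 to 12.3 residues in NOD-FMT and 11.1 to 12.2 in PBS-T glands, with means of 11.5 ± 0.408 and 11.7 ± 0.308 (two-sided exact permutation adjusted p = 0.583). Loops of at most 7 residues made up 9.50% ± 2.97 and 7.33% ± 1.98 of clonotypes (adjusted p = 0.223 by the same exact test), and loops of at least 17 residues 2.91% ± 0.935 and 2.87% ± 0.872. Mean hydropathy, on the Kyte-Doolittle scale, was -0.725 ± 0.0391 and -0.709 ± 0.0305 (exact permutation adjusted p = 0.566).

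Of 40 amino-acid shares tested, 20 by clonotype and 20 by count, 12.5% passed the threshold. Arginine and aspartate are terms of the net charge, so their calls are no further support for the charge difference. By clonotype, arginine made up 9.73% to 11.3% of HCDR3 residues in NOD-FMT and 7.93% to 9.85% in PBS-T glands, with means of 10.5% ± 0.548 and 9.17% ± 0.589 (two-sided exact permutation adjusted p = 0.00368), and 8 of 10 NOD-FMT glands lay above every PBS-T gland. Aspartate ran the other way, from 8.52% to 10.3% in NOD-FMT and from 10.2% to 11.5% in PBS-T glands, with means of 9.53% ± 0.658 and 10.8% ± 0.388 (adjusted p = 0.00368, exact permutation). Tyrosine, the most abundant of the 3, was lower in NOD-FMT glands at 20.6% ± 0.610 against 21.6% ± 0.736 (exact permutation adjusted p = 0.0320). Among IgA sequences alone the difference was -1.11 percentage points against -0.989 over all isotypes, but its adjusted p was 0.0965 by the same exact test. By count, alanine was higher at 13.2% ± 1.67 against 10.9% ± 1.32 and aspartate lower at 9.0% ± 1.76 against 11.9% ± 1.63 (exact permutation adjusted p = 0.0311 and 0.0289). The alanine difference was 1.95 percentage points among IgA sequences alone and 2.31 over all isotypes, and its call was lost there (exact permutation adjusted p = 0.104). None of the 5 passed within merged libraries or within the others (lowest exact permutation adjusted p = 0.190 and 0.0794). The smallest exact permutation p is 0.00476 in merged and 0.00794 in other libraries, so neither split could call a single share alone out of 40. Tyrosine stood at that smallest p within merged libraries, as did arginine and both aspartate shares within the others. Their lack of a call there says nothing about these differences. The alanine difference was 1.35 points within merged and 3.22 within other libraries, and that of aspartate -0.917 and -1.78 by clonotype and -2.10 and -3.76 by count. Arginine differed by 1.71 and 1.03 points and tyrosine by -1.19 and -0.904. Without PBS-T 5 each of these 5 differences passed the threshold (exact permutation adjusted p = 0.00914 to 0.0276).

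IGHJ3 was used more in NOD-FMT glands by both weightings, the 2 calls among 8 tests (25.0%). By count it held 14.1% in the lowest, 29.6% in the median and 49.3% in the highest NOD-FMT gland, against 6.10%, 11.9% and 21.0% in PBS-T glands, and 8 of 10 NOD-FMT glands lay above every PBS-T gland. The means were 29.6% ± 11.8 and 12.5% ± 5.58 (two-sided exact permutation adjusted p = 0.00632, or 0.00750 without PBS-T 5). By clonotype the shares ran from 21.2% to 31.9% in NOD-FMT and from 16.7% to 24.01% in PBS-T glands, with means of 25.5% ± 3.13 and 21.0% ± 2.67 (exact permutation adjusted p = 0.0123, 0.00887 without PBS-T 5 and 0.0506 over clonotypes of at least 5 counts). Within merged libraries the differences were 11.3 percentage points by count and 1.92 by clonotype (exact permutation p = 0.10 and 0.195), and within the others 23.7 and 7.16 points (p = 0.00794 and 0.0238). The NC1 glands held 8.80% to 23.4% by count and 22.0% to 25.1% by clonotype.

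The segment, at chr12:113429085-113429132 on the minus strand of GRCm38, had the same largest carrier in NOD-FMT 7 and NOD-FMT 10, IGHV2-3 with the HCDR3 AKGGYYGSSSWFAY, with 59.6% and 34.9% of the IGHJ3 counts. In NOD-FMT 5 it was an IGHV1-72 clonotype with 44.8%. In NOD-FMT 2, 4 and 9 it was an IGHV6-3 clonotype (TGQGFAY, TYDGFAY and TFDGYYGAY) with 9.29%, 26.2% and 12.3% of the IGHJ3 counts. In PBS-T 7 it was also an IGHV6-3 clonotype (TPFAY), with 20.7%. Further tests were chosen after the IGHJ3 result was seen. They use part of the same clonotypes and are no further support. With the IGHV6 family left out, IGHJ3 held 26.4% ± 13.2 against 12.4% ± 6.03 of counts and 24.2% ± 3.51 against 20.7% ± 2.62 of clonotypes (two-sided exact permutation p = 0.00698 and 0.0208). Within IGHV6-3 clonotypes IGHJ3 made up 58.8% ± 16.7 in NOD-FMT and 37.1% ± 18.4 in PBS-T glands (exact permutation p = 0.0166). Within IGHJ3 clonotypes IGHV6-3 made up 6.35% ± 4.13 and 2.27% ± 1.40 (exact permutation p = 0.0125). Each of these tests had an exact permutation adjusted p of 0.0208. In the spleen IGHJ3 held 23.7% ± 0.452 and 24.1% ± 0.619 of clonotypes, and the gland less its own spleen was 1.75 ± 3.16 points in NOD-FMT and -3.14 ± 2.40 in PBS-T mice (exact permutation adjusted p = 0.00420). That difference of 4.89 points was 2.60 within merged and 7.24 within other libraries and passed in neither (exact permutation adjusted p = 0.241 and 0.0952).

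IGHJ2 ran lower in NOD-FMT glands by count without passing the threshold, at 33.1% ± 9.92 against 46.5% ± 14.5 (two-sided exact permutation adjusted p = 0.0783). Among IgA sequences alone it passed, with a difference of -16.8 percentage points against -13.4 over all isotypes (exact permutation adjusted p = 0.0343). IGHJ1 held 14.9% ± 6.27 and 19.4% ± 7.15 of counts and IGHJ4 22.4% ± 12.6 and 21.6% ± 10.5 (exact permutation adjusted p = 0.264 and 0.923).

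**Figure D2:**
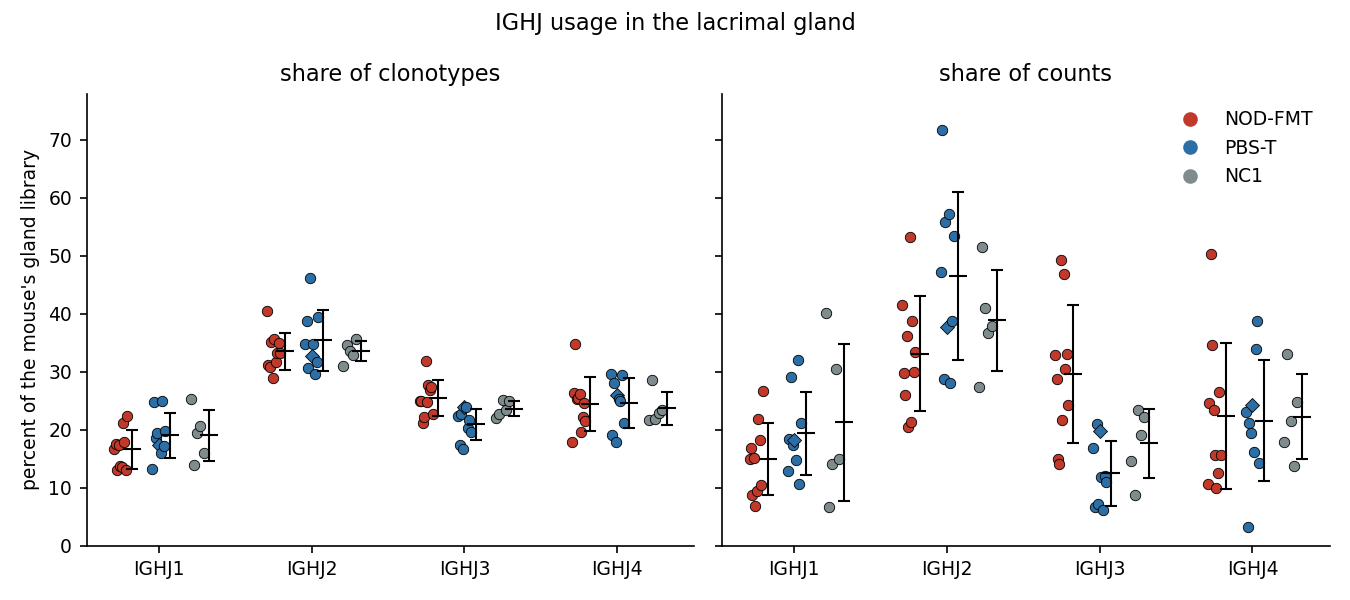
Share of clonotypes (left) and of counts (right) of each mouse's gland library, in percent, that used each IGHJ gene, with group means and SD; diamonds are PBS-T 5. The IGHJ3 shares by count of the NOD-FMT mice average 29.6% and those of the PBS-T mice 12.5%.

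The whole IGHV profile differed by clonotype. The pseudo-F of a permutational analysis of variance on Bray-Curtis dissimilarity was 2.68 over clonotype shares (exact permutation p = 4.33e-05) and 1.43 over count shares (p = 0.0513). Gene by gene, edgeR's quasi-likelihood test called 1 of 117 IGHV genes by clonotype (0.855%) and 0 by count (0.0%). At an unadjusted p under 0.05 stood 15 genes by clonotype (12.8%), 8 higher (6.84%) and 7 lower (5.98%) in NOD-FMT glands, and 12 by count (10.3%), 6 in each direction (5.13% each). In simulated glands of the same sizes that test found 12.4% of 2-fold and 61.2% of 4-fold changes by clonotype and 0% of either by count, so the 0 calls by count say nothing about changes of these sizes.

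The gene called was IGHV10-1 (chr12:114479005-114479451, minus strand, GRCm38), of a family known from antibodies to DNA. It made up 0.863% to 5.01% (median 1.98%) of NOD-FMT and 0.180% to 1.55% (median 0.765%) of PBS-T clonotypes, and the groups overlapped. The means of 2.33% ± 1.35 and 0.842% ± 0.436 correspond to a log2 fold change of 1.49 (edgeR adjusted p = 0.0375). The call was lost without PBS-T 5 (log2 fold change 1.40, edgeR adjusted p = 0.0602) and among IgA sequences alone (1.46, edgeR adjusted p = 0.0793), and the log2 fold change was 0.58 among merged and 2.32 among other libraries. By count it held 2.61% ± 3.86 and 1.04% ± 2.36 (edgeR adjusted p = 0.489). Its largest clonotypes were VRGSGLRRWYFDV in NOD-FMT 10, shown above, with 9.19% of that gland's counts, and VRQGYGYDAWFAY in PBS-T 1 with 3.53%.

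Other genes passed by another test. The exact permutation test of clonotype shares called 2 of 117 genes (1.71%), both at adjusted p = 0.0184, and not IGHV10-1 (0.0602). IGHV3-6 (chr12:114288152-114288582) was lower in NOD-FMT glands, at 1.31% to 2.93% against 1.94% to 5.30%, with means of 1.80% ± 0.539 and 3.48% ± 1.09. IGHV1-59 (chr12:115335082-115335514) was higher, at 0.863% to 2.17% against 0% to 1.34%, with means of 1.41% ± 0.451 and 0.517% ± 0.425. It averaged 1.28% and 0.963% of clonotypes in the spleens of the same mice. With each mouse's own spleen subtracted, its difference was 0.579 points (exact permutation adjusted p = 0.330). DESeq2 called 3 genes (2.56%), all higher in NOD-FMT glands: IGHV10-1, IGHV1-76 at 3.14% ± 0.995 against 1.49% ± 0.820, and IGHV6-3 at 2.57% ± 1.16 against 1.24% ± 0.309 (DESeq2 adjusted p = 0.00276, 0.0169 and 0.0169). Without PBS-T 5 the exact permutation test still called IGHV3-6 and IGHV1-59 (adjusted p = 0.0348 and 0.00535). DESeq2 called 5 genes without it, namely these 3 with IGHV1-59 and IGHV1-63. By count DESeq2 called 7 genes (5.98%) and the exact permutation test 0. Of the 7, IGHV5-2, IGHV1-66, IGHV1-76 and IGHV5-17 were not called without PBS-T 5 (DESeq2 adjusted p = 0.440, 0.0599, 0.0635 and 0.114).

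With each mouse's own spleen subtracted, 3 of 117 genes (2.56%) differed between the groups at an exact permutation adjusted p = 0.0473 each. None of the 3 passed without PBS-T 5, the library that did not match its labelled spleen, although the differences stayed near their size: -1.54 against -1.65 points for IGHV3-6, 1.63 against 1.56 for IGHV1-76 and 1.53 against 1.60 for IGHV6-3 (exact permutation adjusted p = 0.0922, 0.0922 and 0.109). The calls were also 0 within merged libraries, within the others and among IgA sequences alone. Neither split could have called these 3 genes alone out of 117, since its smallest p is 1 in 210 or 1 in 126. The 0 calls of the splits therefore say nothing about these genes. IGHV3-6 lay 1.03 percentage points below the spleen in NOD-FMT (mean -1.03 ± 0.577) and above it in PBS-T mice (0.618 ± 1.10). IGHV1-76 lay above the spleen in NOD-FMT (1.56 ± 0.924) and averaged -0.00273 ± 0.789 points from it in PBS-T mice. IGHV6-3 was 0.383 ± 1.10 points from the spleen in NOD-FMT and -1.22 ± 0.466 in PBS-T mice.

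None of the 10 most used genes passed edgeR's threshold. They held 35.5% of clonotypes on average, led by IGHV1-26 at 5.54% ± 2.06 in NOD-FMT and 6.36% ± 2.66 in PBS-T and IGHV1-53 at 4.96% ± 1.21 and 4.86% ± 2.13 (edgeR adjusted p = 0.707 and 0.965). IGHV1-22 varied widely among PBS-T mice, from 0.647% to 14.1% (mean 4.44% ± 5.09), against 0.999% to 3.66% in NOD-FMT. Of a list of 12 genes chosen with earlier results known, 7 were higher and 5 lower in NOD-FMT glands by clonotype, with a median log2 fold change of 0.02 against -0.23 over all 117 genes. By count the split was 6 and 6, with a median of 0.28 against -0.53. Within that list IGHV6-3 held 4.92% ± 3.64 against 0.866% ± 0.642 of counts (edgeR adjusted p = 0.252). IGHV5-17 held 2.28% ± 0.619 and 1.45% ± 0.600 of clonotypes, and IGHV11-2, a gene of B-1 cells, 0.296% ± 0.290 and 0.197% ± 0.231 (edgeR adjusted p = 0.380 and 0.690).

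Among IGHV families, 1 of 30 shares tested (3.33%) passed. IGHV9 made up 1.25% to 3.71% (median 2.27%) of NOD-FMT and 3.07% to 5.97% (median 4.24%) of PBS-T clonotypes, and 7 of 10 NOD-FMT glands lay below every PBS-T gland. The means were 2.38% ± 0.814 and 4.36% ± 1.18 (two-sided exact permutation adjusted p = 0.0156, or 0.0281 without PBS-T 5). The difference of -1.98 percentage points was -1.59 among IgA sequences alone and -0.835 over clonotypes of at least 5 counts, where the call was lost (exact permutation adjusted p = 0.133 and 0.311). Within merged libraries it was -2.39 points and within the others -1.84 (exact permutation p = 0.0143 and 0.0159, adjusted p = 0.429 and 0.159). The IGHV3 and IGHV10 families fell short of the threshold, at 3.37% ± 1.37 against 5.57% ± 1.63 and 4.10% ± 1.62 against 2.08% ± 1.15 of clonotypes (exact permutation adjusted p = 0.0809 each). By count IGHV9 held 1.70% ± 1.83 and 2.47% ± 2.06 (exact permutation adjusted p = 0.729).

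**Figure D3:**
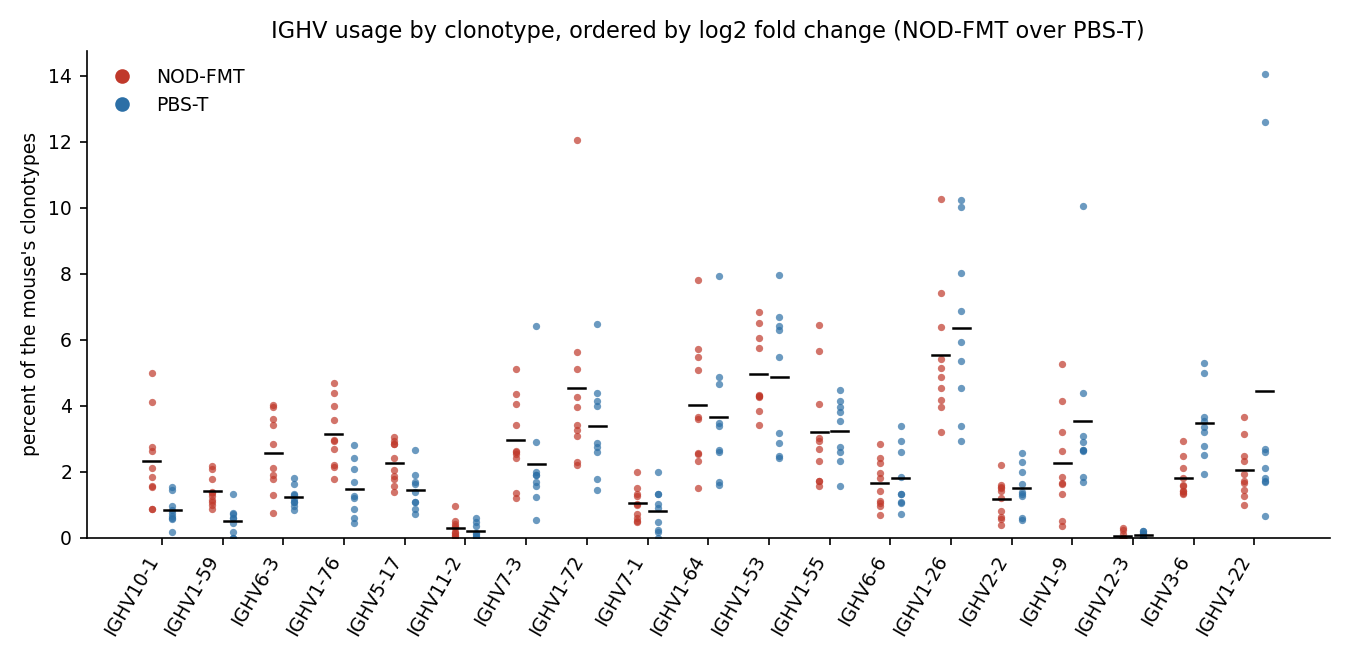
Share of each mouse's gland clonotypes, in percent, held by the IGHV genes named in the text, 1 point a mouse, with bars at the group means and genes ordered by log2 fold change. IGHV10-1 averages 2.33% in NOD-FMT and 0.842% in PBS-T glands, and the points of the groups overlap.

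IgA dominated every NOD-FMT gland but not every PBS-T gland. It held 94.6% to 98.7% (median 97.2%) of NOD-FMT counts and 13.8% to 97.2% (median 84.8%) of PBS-T counts. The lowest PBS-T values were 13.8% in PBS-T 9 and 41.5% in PBS-T 2, while PBS-T 4, 6 and 7 lay within the NOD-FMT range. The means were 96.8% ± 1.33 and 74.8% ± 29.1 (two-sided exact permutation adjusted p = 0.0136, or 0.0186 without PBS-T 5), and of 16 isotype shares tested 56.2% passed. The count shares of a gland add up to its total, and the clonotype shares come from the same sequences. A lower IgA share thus comes with higher shares of other isotypes, and these calls are not independent. Without PBS-T 9 the difference of 22.0 percentage points was 14.3. Within merged libraries it was 12.1 points (exact permutation p = 0.0190, adjusted p = 0.0508) and within the others 29.9 (p = 0.230), and none of the isotype shares passed the threshold among the other libraries alone. The NC1 glands held 87.4% to 97.8% IgA.

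The remaining counts lay in other isotypes in different PBS-T mice. IgM held 0.247% to 3.53% of NOD-FMT and 0.289% to 49.0% of PBS-T counts, with means of 1.10% ± 0.967 and 10.98% ± 16.4 (two-sided exact permutation adjusted p = 0.0188). IgG1 held 0.00103% to 0.366% and 0.0611% to 10.5%, with means of 0.0817% ± 0.107 and 1.87% ± 3.31 (exact permutation adjusted p = 0.00727), and 6 of 10 NOD-FMT glands lay below every PBS-T gland. IgD, of which the shares were under 0.13% in every gland, was also lower in NOD-FMT glands (exact permutation adjusted p = 0.0188). The IgD shares rest on 1 to 11 counts a gland in NOD-FMT and, apart from 465 in PBS-T 5, on 2 to 17 in PBS-T mice. Single mice set the size of these differences: IgM differed by -9.88 percentage points, but by -5.13 without PBS-T 9, IgG1 by -1.79, but by -0.710 without PBS-T 3, and IgD by -0.0230, but by -0.0104 without PBS-T 5, each still past the threshold. Within merged and other libraries the differences were -4.19 and -14.4 points for IgM, -3.47 and -0.454 for IgG1 and -0.0177 and -0.0282 for IgD. IgG2b and IgG2c held 5.66% ± 9.30 and 6.56% ± 11.3 of PBS-T counts against 1.56% ± 0.520 and 0.405% ± 0.213 of NOD-FMT counts (exact permutation adjusted p = 0.0771 and 0.0676). By clonotype, IgA was found in 82.4% ± 8.50 of NOD-FMT and 61.5% ± 20.0 of PBS-T clonotypes, and IgM in 11.4% ± 6.46 and 26.4% ± 16.3 (exact permutation adjusted p = 0.0188 and 0.0297). IgG1 was found in 0.792% ± 0.563 and 2.79% ± 2.00 of clonotypes and IgD in 0.521% ± 0.463 and 1.38% ± 0.763 (exact permutation adjusted p = 0.0136 and 0.0188). IgG2c was found in 2.32% ± 0.773 and 5.48% ± 4.02 (exact permutation adjusted p = 0.0321). Its difference was -2.94 percentage points without PBS-T 5 against -3.16 with it, and the call was lost (exact permutation adjusted p = 0.0530). By clonotype the differences within merged and other libraries were 22.5 and 22.6 points for IgA, -15.3 and -17.5 for IgM, -2.60 and -1.61 for IgG1, -1.10 and -0.724 for IgD and -2.88 and -3.52 for IgG2c. Without PBS-T 5 the other 8 calls remained, and over clonotypes of at least 5 counts the calls for IgD by count and for IgA, IgM, IgD and IgG2c by clonotype were lost (exact permutation adjusted p = 0.0986 to 1).

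**Figure D4:**
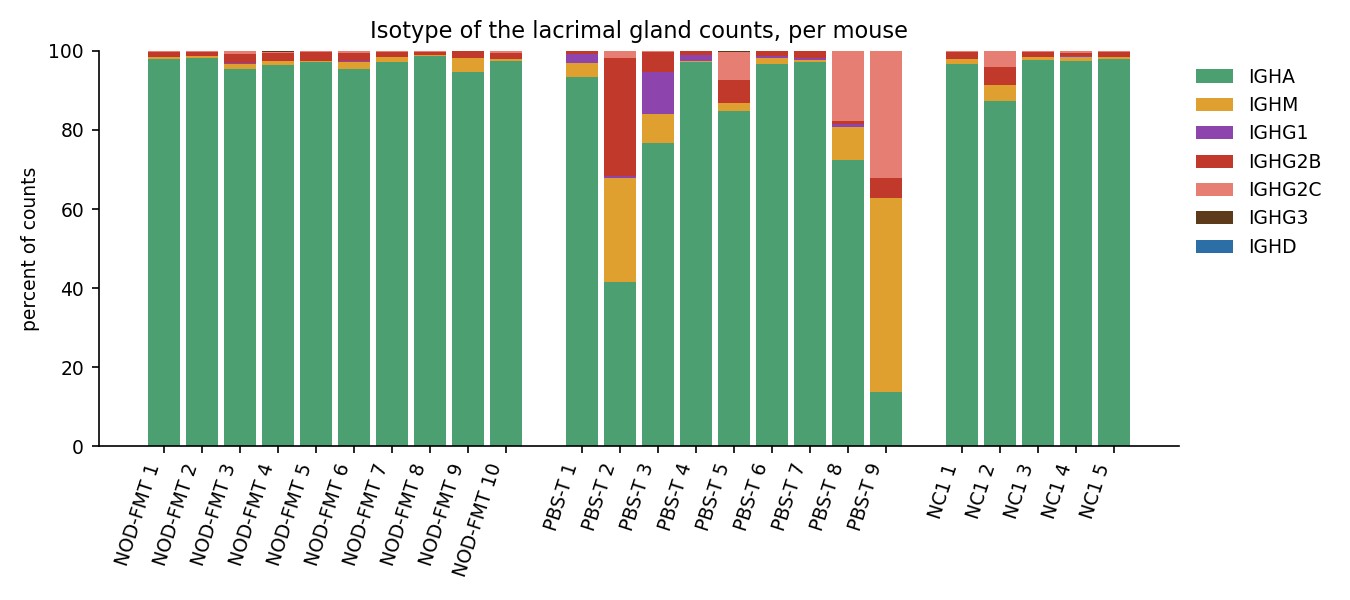
Share of each gland library's counts, in percent, held by each isotype, for every NOD-FMT, PBS-T and NC1 mouse. The 10 NOD-FMT libraries are at least 94.6% IgA, while PBS-T 2 and PBS-T 9 are at 41.5% and 13.8%.

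Mutation was measured as the deposited number of IGHV differences per sequence. Of 15 measures over 5 isotypes, 13.3% passed the threshold. Among IgA counts, 61.6% to 89.1% (median 75.05%) carried no mutation in NOD-FMT and 14.1% to 81.2% (median 63.8%) in PBS-T glands, with means of 75.7% ± 8.27 and 56.2% ± 20.0 (two-sided exact permutation adjusted p = 0.0284). The groups overlapped, the call was lost without PBS-T 5 (a difference of 16.8 percentage points against 19.5, exact permutation adjusted p = 0.0562), and over unique sequences rather than counts the difference was 0.0221 percentage points. The mean number of mutations in IgA was 0.663 ± 0.423 and 1.33 ± 0.810 by count (exact permutation adjusted p = 0.144) and 1.78 ± 0.635 and 2.22 ± 0.633 over clonotypes (adjusted p = 0.315). The NC1 glands held 39.9% to 74.0% unmutated IgA.

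IgG1 ran the other way. Its unmutated share was 1.54% to 70% (median 22.9%) in the 9 NOD-FMT glands with at least 20 IgG1 counts and 24.4% to 95.9% (median 89.9%) in PBS-T glands, with means of 31.5% ± 24.6 and 76.6% ± 26.4 (two-sided exact permutation adjusted p = 0.0284, or 0.0278 without PBS-T 5). The call was lost over unique sequences (a difference of -20.6 percentage points against -45.1) and with merged as a term (-43.9), at adjusted p = 0.173 and 0.0595 by exact permutation, and in 5 of the 19 fits that leave out 1 mouse. The IgG1 shares rest on 20 to 225 IgG1 counts in those 9 NOD-FMT glands and on 87 to 4230 in PBS-T glands. The NC1 glands held 20.5% to 98.7% unmutated IgG1. In IgM the unmutated share was 71.4% ± 23.6 and 75.2% ± 19.8, and in IgG2b 79.9% ± 4.68 and 68.3% ± 21.2 (exact permutation adjusted p = 0.770 and 0.258).

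Clonal evenness gave 0 calls among 6 measures (0.0%), and the lowest unadjusted exact permutation p was 0.419. Shannon evenness was 0.528 to 0.685 in NOD-FMT and 0.459 to 0.724 in PBS-T glands, with means of 0.622 ± 0.0621 and 0.618 ± 0.0822 (two-sided exact permutation adjusted p = 0.916). The 10 largest clonotypes held 24.7% to 61.1% and 20.7% to 78.7% of counts, with means of 45.1% ± 11.2 and 49.97% ± 17.8 (adjusted p = 0.916 in the same exact test). The largest clonotype held 14.0% ± 7.97 and 15.4% ± 8.05.

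**Figure D5:**
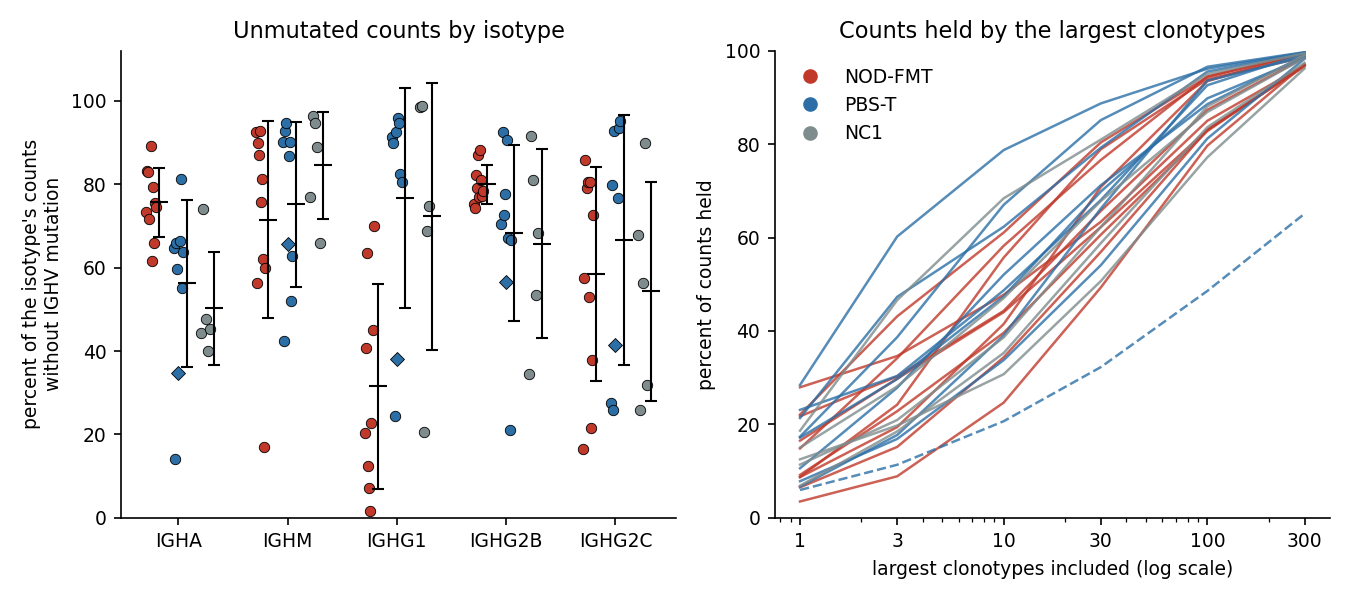
Left, percent of each isotype's counts without an IGHV mutation, 1 point a mouse with group means and SD (diamonds are PBS-T 5); right, percent of a gland's counts held by its largest clonotypes, against the number of clonotypes included on a log scale, 1 line a mouse (PBS-T 5 dashed). IgA averages 75.7% unmutated in NOD-FMT and 56.2% in PBS-T glands, and the curves of the groups run through each other.

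The largest clonotype of each gland was mainly IgA in 10 of 10 NOD-FMT and 6 of 9 PBS-T glands. The exceptions were YYGSSFDY of PBS-T 2, which was 90.4% IgG2b, TTYYYGSSYGLAY of PBS-T 3, 88.4% IgG1, and ARYHYSNPYYFDY of PBS-T 9, 86.6% IgG2c. Net charge was positive in 4, 0 in 3 and negative in 3 NOD-FMT glands, and positive in 1, 0 in 6 and negative in 2 PBS-T glands. IGHJ2 was used by 7 of 9 in PBS-T and by 2 of 10 in NOD-FMT glands. The same clonotype was found in the mouse's own spleen in 10 of 10 NOD-FMT and 8 of 9 PBS-T mice, PBS-T 5 being the exception with 0 counts. These counts describe the largest clonotypes and were not tested.

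A pair of largest clonotypes from opposite groups differed by 1 residue. Both joined IGHV1-9 to IGHJ2, and from ARGGDYFDY of NOD-FMT 8 to ARGGNYFDY of PBS-T 1 the HCDR3 changed by D5N, counted from 1 at its amino-terminal end, which moves the net charge from -1 to 0. Their coding sequences, with capitals as before, show an acidic codon at residue 5 in the first only, and both carry GAC close to the end. They also differ in the codon before residue 5, ggc against ggt, which encodes glycine in both.
NOD-FMT 8: gcaAGAgggggcGACtactttGACtac
PBS-T 1: gcaAGAgggggtaactactttGACtac
They held 8.72% (95% exact binomial interval 8.54 to 8.90) and 7.84% (7.58 to 8.10) of their glands' counts, intervals that cover counting error only. Both were wholly IgA, with means of 3.07 and 4.28 IGHV mutations and no unmutated count. The untreated mice NC1 1 and NC1 4 also had largest clonotypes 1 residue apart, ATNWDRYFDV and ARNWDRYFDV, both with IGHV1-53.

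Over the 10 largest clonotypes of each gland, 36 of 100 in NOD-FMT and 11 of 90 in PBS-T mice had a positive charge, and 21 and 44 a negative one. A NOD-FMT gland held 2 to 7 positive clonotypes among its 10 and a PBS-T gland 0 to 4. IGHJ3 was used by 29 of 100 and 8 of 90, with 1 to 4 a gland in NOD-FMT and 0 to 2 in PBS-T mice. In NC1 mice 15 of 50 were positive and 10 of 50 used IGHJ3. These counts were not tested.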

How the data were processed

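Each library was made from heavy-chain transcripts of the lacrimal gland or spleen of 1 mouse, amplified with molecular identifiers. Per the study's methods, the authors merged read pairs, clustered reads by identifier into consensus sequences and annotated these with IgBLAST, and per the labels the build was mm10. The deposited tables hold, for each sequence, the count of consensus sequences behind it, that count as a fraction of the library as the authors computed it (not used in tests), the V, J and constant-gene calls, the HCDR3 and the number of V mutations. They still hold sequences shared between mice. The study's methods describe removing those found in more than 2 mice. Both readings of this were alternatives: keeping such sequences in the top mouse removed 0.245% of counts, near the share the methods state, and removing every copy 9.83%, far above it.

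In a departure from this, a nucleotide sequence found in 2 or more of the 24 gland mice was kept only in the mouse with its highest count. Where mice tied for the highest count, the sequence was removed from all of them. This filter removed 19501 of 2878417 counts (0.677%). Spleen libraries were not filtered. IGHV genes found in at least 5 of the 19 mice were tested with edgeR 4.0.16 (quasi-likelihood, library totals as offsets) in R 4.3.3, with DESeq2 1.42.0 as an alternative. All other tests were exact permutations (NumPy 2.4.6), with Benjamini-Hochberg adjustment within each family of measures and a threshold of 0.05. They ran over the 92378 splits of the 19 mice or, where fewer mice entered, over all splits of those. With the replicate number as a block they used the 512 sign flips of 9 pairs. They were two-sided on the group difference, except for the IGHV profile. Its p is the share of splits with a pseudo-F at least as large. Mutation tests required at least 20 counts of an isotype in a mouse and 5 such mice a group. Counting intervals are 95% exact binomial (Clopper-Pearson) intervals. Depth of each gland library after filtering was 40401 to 359925 counts. Scripts were tested on simulated data. The members and gene lists were chosen with earlier results of these data known, and the genes named are those past the threshold, the 10 most used, a list of 12 genes and the largest clonotype of each mouse. The charge tests by loop stretch and by group of clonotypes, the extra IGHJ3 tests and the subtraction of the spleen for IGHJ, charge and isotypes were added after the main results were seen. Gene positions are from GENCODE M21 on GRCm38, where 31 of 31 genes matched.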

Additional observations from a re-analysis of the deposited data

Results flagged for a closer look

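In 87 groups of mice examined, 13 values, from 7 libraries, stood outside the spread of their group by the gap between the extreme value and its neighbour, a test that chance passes in about 1 of 20 groups. PBS-T 5 stood apart in the number of clonotypes (17181, next 943), in the share of counts in its own spleen's clonotypes (2.98%, next 76.3%) and in IgD (0.129% of counts, next 0.0371%). PBS-T 3 held 10.5% IgG1 counts (next 2.39%). NOD-FMT 3 held the most IgG1 of its group, 0.366% of counts (next 0.121%) and 2.12% of clonotypes (next 1.15%). NOD-FMT 9 held 3.53% IgM counts (next 1.75%), and NOD-FMT 2 shared 79.4% of counts with its own spleen (next 87.2%). Among untreated mice NC1 2 held 87.4% IgA (next 96.7%), 3.90% IgM (next 1.14%) and 74.0% unmutated IgA counts (next 47.7%). NC1 4 held 0.0744% IgD counts (next 0.0224%) and 1.31% IgG1 clonotypes (next 0.767%).

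The difference between the groups itself differed between gland and spleen, by the exact permutation test of gland less own spleen, for 6 measures. These were mean net charge (0.320), IGHJ3 (4.89 percentage points of clonotypes), IgA (20.2 points of counts), IGHV1-76 (1.56 points), IGHV6-3 (1.60 points) and IGHV3-6 (-1.65 points), each as NOD-FMT minus PBS-T. The IGHV genes are 3 of 117 tested (2.56%). Of the measures other than IGHV genes, IGHJ1, IGHJ2, IGHJ4, mean length and IgM did not pass (exact permutation adjusted p = 0.441 to 0.729). IGHJ3 was 2.60 points within merged and 7.24 within other libraries, and IgA 7.63 and 31.2 points, and neither passed in either split (exact permutation adjusted p = 0.0952 to 0.241). Without PBS-T 5 the 3 IGHV genes no longer passed (exact permutation adjusted p = 0.0922 to 0.109). For IgA, gland less spleen ran from 9.50 to 94.3 points in PBS-T and from 81.3 to 90.3 in NOD-FMT mice. How far its difference rests on the lowest PBS-T mouse was not tested.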

How the results depend on the processing

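No difference past the threshold changed direction in the alternatives run, whereas differences short of it did, such as IGHJ2 by clonotype (-1.90 percentage points over all libraries, 1.50 in merged libraries) and IGHJ4 by count (0.788 and -2.49). Net charge by clonotype kept its call in all 33 alternatives (0.275 to 0.395), and the IGHV profile by clonotype passed in each of its alternatives. With merged libraries alone the calls were 0 for IGHV families, IGHJ, amino acids, IGHV genes by clonotype and IGHV genes in gland less spleen, 1 for HCDR3 properties and 5 for isotypes; with the other libraries alone they were 0 for families, IGHJ, amino acids, isotypes and IGHV genes in gland less spleen (net charge in gland less spleen had an exact permutation adjusted p of 0.0381 and 0.0635). The smallest p of these splits is 1 in 210 and 1 in 126. By exact permutation a single measure therefore could not pass among 16 or more tests, nor among 8 in the other libraries. IGHJ3 by count and net charge in gland less spleen stood at the smallest p of the other libraries (exact permutation p = 0.00794). Mutation could not be fitted in the splits because each leaves 4 mice in 1 group, under the 5 required. With merged as a term there were 2 family, 0 IGHV by clonotype and 0 mutation calls. IgA sequences alone, chosen after seeing the data, gave 3 amino-acid, 0 family, 0 IGHV by clonotype and 0 gland-less-spleen calls. Leaving out each mouse's largest clonotype, also chosen after seeing the data, gave 2 amino-acid, 2 IGHV by count and 1 mutation calls, and a profile by count of 1.74 (p = 0.0134).

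Family calls were 3 without a contamination filter, 4 with sequences in more than 2 mice removed everywhere, 2 with clonotypes of at least 2 counts and 2 when thinned. IGHV calls by clonotype were 2 under each of these 4 settings, 2 with sequences in more than 2 mice kept in the top mouse, 7 with clonotypes of at least 5 counts, 3 by DESeq2 and 2 by exact permutation, and, with PBS-T 5 also left out, 5 and 2 by these tests (chosen after seeing the data). IGHV calls by count were 7 by DESeq2, 6 by DESeq2 without PBS-T 5 and 1 without a filter on genes. Clonotypes of at least 5 counts gave 4 HCDR3, 1 IGHJ and 4 isotype calls. The rank sum test gave 5 isotype calls and 1 mutation call. Mutation calls were 1 with sequences in 2 or more mice removed, 0 over unique sequences and 1 at a minimum of 100 counts, where IgG1 could not be tested because 4 NOD-FMT glands reached it, and thinning left 1 gland-less-spleen call. The profile by count, at p = 0.0513 in the main test, passed without a contamination filter (1.47, p = 0.0402), with sequences in more than 2 mice removed (1.57, p = 0.0163) or kept in the top mouse (1.44, p = 0.0474), with those in 2 or more removed (1.74, p = 0.00140) and by Hellinger distance (1.38, p = 0.0427), all by exact permutation.

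With 1 mouse left out, calls ranged from 2 to 6 for amino acids, 1 to 2 for families, 0 to 5 for IGHV by clonotype, 0 to 4 for gland less spleen, 6 to 11 for isotypes, 0 to 3 for mutation, 2 to 3 for IGHJ, and the profile by count from 1.25 to 1.59. Of these 19 fits, the IGHV10-1 call was lost in 10 (without NOD-FMT 2, 5, 9 or 10 or PBS-T 2, 3, 5, 6, 8 or 9; highest edgeR adjusted p 0.130), tyrosine by clonotype in 10 (without NOD-FMT 2, 7, 8, 9 or 10 or PBS-T 1, 4, 7, 8 or 9; 0.0826, exact permutation here and in what follows), alanine by count in 6 (without NOD-FMT 9 or PBS-T 2, 4, 7, 8 or 9; 0.0690) and aspartate by count in 3 (without PBS-T 4, 8 or 9; 0.0640). Unmutated IgA was lost in 8 (without NOD-FMT 2, 3, 5, 7, 9 or 10 or PBS-T 2 or 5; 0.0673), unmutated IgG1 in 5 (without NOD-FMT 2, 5, 7 or 9 or PBS-T 2; 0.0673), IgG2c by clonotype in 8 (without NOD-FMT 2, 7, 8, 9 or 10 or PBS-T 5, 8 or 9; 0.0649), IgM by clonotype in 4 (without NOD-FMT 2 or 9 or PBS-T 2 or 9; 0.0620) and IgM by count in 1 (without NOD-FMT 2; 0.0511). The cause of these changes was not tested.

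Replicate numbers did not pair the mice: of 9 pairs, 3 deviated together with a correlation over 0.1 (range -0.344 to 0.269) and 2 correlated best with their own number. With the replicate number as a block, calls were 0 for families, amino acids, isotypes, mutation, IGHV by clonotype, IGHV by count and gland less spleen, 1 for HCDR3 properties (net charge by clonotype, 0.318) and 3 for IGHJ, and the profile was 2.52 by clonotype and 1.31 by count.

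In simulated glands with these depths of 40401 to 359925 counts and these group sizes, 12.4% of 2-fold changes of single IGHV genes by clonotype were found. How much of that is due to depth was not tested.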
